A study of Mus musculus with 5 samples.

Results

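Very long genes are described here by their histone H3 lysine 14 acetylation (H3K14ac): the 922 genes whose deposited gene body length was at least 200000 bp, out of 27179 genes in the gene body count table. They were chosen by length alone, and made up 3.39% of the genes and 36.9% of the summed gene length. The assay was CUT&Tag: an antibody (abcam ab52946) brings the Tn5 transposase to the mark, and the enzyme cuts and tags the DNA beside it. The cells were LSK cells, the lineage-negative, Sca-1-positive and Kit-positive fraction of bone marrow in which stem and early progenitor cells of the blood are found, from male C57BL/6 mice. The 2 control libraries carried the genotype Hbo1def/+; T/+ and the 2 knockout libraries Hbo1def/def; T/+, so the controls were themselves heterozygous for the def allele. Both groups received poly(I:C), which triggers an interferon response and through it switches on Mx1-cre, a recombinase transgene that acts in blood cells and also in other tissues. The labels give no age and do not say if each library is a separate animal, so a p-value here reflects only how far these libraries spread, possibly for technical reasons. Levels are relative to the scaling of each library, since the sources used here name no spike-in. The series lists 5 libraries, and the HBO1 (KAT7) library was not analysed here.

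HBO1, also called KAT7, is the catalytic subunit of acetyltransferase complexes that acetylate histone H3, lysine 14 among the residues. H3K14ac is found around active start sites and also spread through gene bodies and between genes. Genes of such length are mostly intron, many serve nerve and muscle cells (synaptic adhesion molecules, ion channels, dystrophin), and several lie at common fragile sites, which break when replication is slowed.

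Of the 922 genes, 893 were protein coding, 22 were long non-coding RNA genes, 1 was a transcribed pseudogene and 6 had no symbol in the RefSeq table of GRCm38.p6. The median length was 318.8 kb against 12.1 kb for all genes. There were 421 genes of 200 to 300 kb, 193 of 500 kb or more and 47 of 1000 kb or more, up to Dmd, the dystrophin gene, at 2256.2 kb. For 863 genes the RefSeq span lay within 1% of the deposited length, and position and base composition are given for these. Their bodies were poorer in G and C (median 41.4%) than those of shorter genes (45.7%). Their starts were more often rich in CpG: 547 of 863 (63.4%) had an observed to expected CpG ratio of at least 0.6 in the 1000 bp around the start, against 43.9% of the shorter genes. Smaller genes were found inside 197 of the 863, and 15 were found to overlap another gene of at least 200 kb.

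Promoters of 6 of these genes are shown, because the changes described below differed between genes with CpG-rich and CpG-poor starts. Each run of 300 bases covers 250 bases before the start and 50 after it, 5′ to 3′ on the gene's own strand, from RefSeq on GRCm38.p6 (mm10), and capitals mark each CG. Nr6a1 and Pitpnc1 were taken from the genes that rose most in the 5 kb upstream of the start, Brinp3 and Magi2 from those that fell there, Gli2 as the gene body that fell most and Runx1 as the one that rose most.
Nr6a1 chr2:38926412-38926711 (minus strand): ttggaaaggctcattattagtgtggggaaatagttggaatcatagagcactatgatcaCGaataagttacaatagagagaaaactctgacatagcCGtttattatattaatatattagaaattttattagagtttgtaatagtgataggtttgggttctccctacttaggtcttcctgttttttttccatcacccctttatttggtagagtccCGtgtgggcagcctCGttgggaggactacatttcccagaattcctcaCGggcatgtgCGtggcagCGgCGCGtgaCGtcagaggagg
Pitpnc1 chr11:107470671-107470970 (minus strand): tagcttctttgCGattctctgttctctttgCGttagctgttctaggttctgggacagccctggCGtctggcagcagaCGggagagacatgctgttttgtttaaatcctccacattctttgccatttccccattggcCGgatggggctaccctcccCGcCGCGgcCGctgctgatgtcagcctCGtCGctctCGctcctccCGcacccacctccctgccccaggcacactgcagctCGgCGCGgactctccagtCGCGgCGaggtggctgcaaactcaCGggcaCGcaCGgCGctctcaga
Brinp3 chr1:146495416-146495715 (plus strand): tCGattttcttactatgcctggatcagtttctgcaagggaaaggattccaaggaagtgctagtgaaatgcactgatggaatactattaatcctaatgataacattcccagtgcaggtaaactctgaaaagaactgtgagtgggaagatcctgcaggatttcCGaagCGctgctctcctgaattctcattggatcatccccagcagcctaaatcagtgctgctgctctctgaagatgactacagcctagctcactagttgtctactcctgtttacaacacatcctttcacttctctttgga
Magi2 chr5:19226796-19227095 (plus strand): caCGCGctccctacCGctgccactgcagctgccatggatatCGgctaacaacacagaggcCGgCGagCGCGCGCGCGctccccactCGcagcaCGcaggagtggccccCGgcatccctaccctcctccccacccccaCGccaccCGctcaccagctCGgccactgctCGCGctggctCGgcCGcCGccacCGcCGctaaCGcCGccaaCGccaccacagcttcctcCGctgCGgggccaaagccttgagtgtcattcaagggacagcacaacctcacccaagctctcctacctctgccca
Gli2 chr1:119053570-119053869 (minus strand): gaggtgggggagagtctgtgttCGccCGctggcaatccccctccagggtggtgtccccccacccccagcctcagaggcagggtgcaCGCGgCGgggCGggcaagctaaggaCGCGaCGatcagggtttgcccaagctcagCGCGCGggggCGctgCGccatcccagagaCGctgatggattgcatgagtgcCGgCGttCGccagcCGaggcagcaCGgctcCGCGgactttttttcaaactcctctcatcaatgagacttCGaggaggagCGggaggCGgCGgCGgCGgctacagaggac
Runx1 chr16:92826025-92826324 (minus strand): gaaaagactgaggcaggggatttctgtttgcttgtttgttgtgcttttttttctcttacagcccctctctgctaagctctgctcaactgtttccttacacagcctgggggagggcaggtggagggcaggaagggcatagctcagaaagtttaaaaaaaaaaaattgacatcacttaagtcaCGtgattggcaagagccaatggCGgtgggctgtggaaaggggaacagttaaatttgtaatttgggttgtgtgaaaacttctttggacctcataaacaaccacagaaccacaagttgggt
These promoters held 10, 23, 3, 29, 28 and 2 CG in that order, so that Magi2, which fell upstream, held more than either promoter that rose. At least 1 CG was present in 94.6% of the 32851 promoters of the same length in the table (median 7 CG), and in 99.0% of the 613 long genes matched to a promoter (median 19). A CG reads the same on both strands. Matched long genes that rose upstream had a median of 31 CG (n = 79), those that fell 11 (n = 131), and those that did not pass the test 20 (n = 356).

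Total gene body counts lay between 4723549 and 12386891 per library, with both knockout libraries below both controls, and upstream totals between 869859 and 1164409. The lower gene body depth of the knockouts moves with the genotype, and its part in the results was not tested. Kat7, the targeted gene, had gene body levels of 0.800 and 0.784 CPM per kb in the controls and 2.30 and 1.02 in the knockouts (log2 fold 1.06 ± 0.32 SE, edgeR adjusted p = 0.00668). CPM per kb is the TMM-scaled CPM (counts relative to the library's effective total) divided by length. Acetylation over the locus does not check the deletion. The 5 LSK markers used (Kit, Ly6a, Cd34, Flt3 and Ptprc) had upstream counts, with a median control level of 12.2 CPM per kb against 6.01 for all genes. Their summed upstream level was 285 and 257 CPM in the controls and 579.6 and 458 CPM in the knockouts. The 10 markers of stromal and endothelial cells summed to 620 and 491 in the controls and 255 and 316 in the knockouts. The 8 markers of mature blood lineages summed to 716, 612, 559 and 538, and 5 neuronal markers to 108, 131, 81.8 and 105, in the order control 1, control 2, knockout 1, knockout 2. The median control level was 9.09 CPM per kb for the stromal and endothelial markers, 14.5 for the mature blood lineages and 4.71 for the neuronal markers. The mature blood lineages thus lay above the LSK markers. No marker was at 0 in every library. The stromal and endothelial sum moved in the same direction as the long genes, and its part in the results below was not tested.

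Long genes took a smaller share of gene body counts in the knockout libraries. They held 40.4% and 37.9% of gene body counts in the controls, above their 36.9% share of gene length, and 26.5% and 32.7% in the knockouts, below it. The groups did not overlap: the means were 39.1 ± 1.81% and 29.6 ± 4.38% (SD, n = 2 each), a difference of -9.50 percentage points (exact two-sided permutation p = 0.333, the smallest that 6 assignments allow). At these depths counting error is small: the 95% Wilson interval of the share in knockout 1 ran from 26.51% to 26.59%. Long genes held 3.48% and 3.25% of upstream counts in the controls and 2.49% and 2.89% in the knockouts. Downstream of the gene end they held 5.42% and 4.78%, against 2.85% and 3.87%. Loss of the mark per cell and fewer cells carrying it cannot be told apart in pooled cells.

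**Figure D1:**
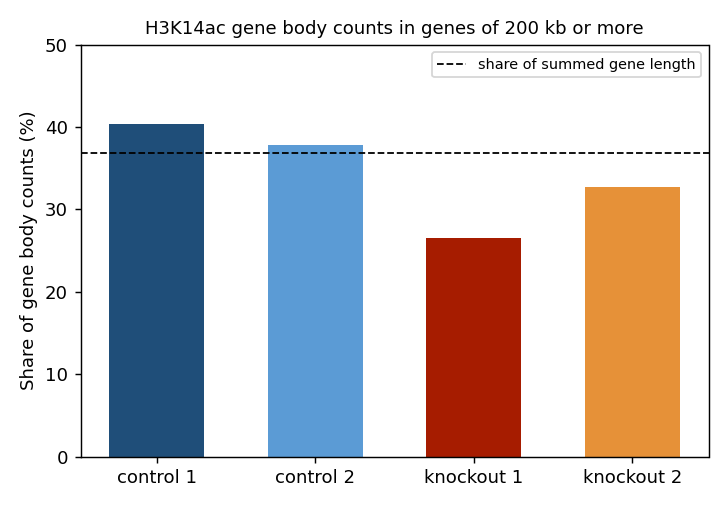
Share of all gene body counts that lay in genes of 200 kb or more, in percent, 1 bar per library. The dashed line is the 36.9% share of gene length, which both controls (40.4% and 37.9%) exceed and both knockouts (26.5% and 32.7%) fall short of.

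Per kilobase, the median long gene was more acetylated than the median gene in control cells and less so in knockout cells. Its gene body level, as a log2 difference from the median of all genes tested, was 0.68 and 0.44 in the controls and -0.61 and -0.14 in the knockouts, a mean difference of -0.94. In the upstream window the values were 0.08 and -0.08 against -0.54 and -0.29, a difference of -0.41. In the downstream window they were 0.76 and 0.51 against -0.07 and 0.14, a difference of -0.60. In none of the windows did the groups overlap, and each exact permutation p was 0.333. Any scaling between libraries cancels in these values. The median body count of a long gene was 4654 and 3722 in the controls and 1130 and 1857 in the knockouts. The upstream medians were 35, 32, 16 and 23 counts, so counting error was larger for single genes in that window than over the body. Counting error leaves out the spread between libraries.

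Long genes differed widely from each other. In control 1 the body level of the middle 90% ran from 0.172 to 2.77 CPM per kb, a ratio of 16.1, and in knockout 1 from 0.147 to 1.59, a ratio of 10.8. The highest control levels were those of Trabd2b (5.02 and 3.20 CPM per kb), Gli2 and Sorcs2, a sorting receptor gene of neurons (3.60 and 2.59). All 3 fell: in the knockouts Trabd2b had 1.14 and 1.76 CPM per kb, and Sorcs2 1.14 and 1.53. At the low end, Pcdh11x, an X-linked protocadherin gene, had 0.0624 and 0.0615 CPM per kb in the controls and 0.0543 and 0.0663 in the knockouts, where the groups overlapped.

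Over gene bodies, 913 long genes had enough counts to be tested, and 458 fell while 4 rose (edgeR quasi-likelihood test, Benjamini-Hochberg adjusted over all 21393 genes tested, threshold 0.05). Of all genes tested, 15.2% fell and 23.1% rose. The median log2 fold of the long genes was -0.78, against 0.02 for all genes tested, and 823 of 913 were below 0. With a GC correction the medians were -0.49 and 0.18, 717 long genes were below 0, 367 fell and 23 rose. Of all genes tested, 9.61% fell and 23.9% rose with that correction. The 58 tested long genes with no matched RefSeq span had no GC value and stayed uncorrected. Both knockouts lay below both controls in 766 long genes, which 39.4% of all genes tested did. The number of falls changed strongly with the library left out, in long genes and in all genes tested, and such a fit leaves a group with no replicate. Without control 1, control 2, knockout 1 and knockout 2 in turn, the median fold of long genes was -0.63, -0.91, -0.55 and -0.94. That of all genes tested was 0.01, 0.07, 0.04 and 0.03. With libraries scaled on 1479 olfactory and vomeronasal receptor genes, the chemosensory receptors of the nose, 108 long genes fell and 51 rose. Of all genes tested, 0.869% fell and 21.1% rose with that scaling. The median was then -0.14 against 0.67 for all genes, a distance of -0.81, against -0.80 with TMM scaling.

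The 8 named falls began with Gli2, a transcription factor gene of the Hedgehog pathway (chr1:118834061-119053619, minus strand, mm10). Gli2 had 4.30 and 2.60 CPM per kb in the controls and 0.792 and 1.20 in the knockouts. Both knockouts were far below both controls, and the log2 fold was -1.79 ± 0.35 SE (edgeR adjusted p = 4.66e-05). Fbxl7, an F-box gene of ubiquitin ligases, went from 0.984 and 0.929 to 0.257 and 0.317 CPM per kb (-1.74 ± 0.31, adjusted p = 9.73e-06 by edgeR). Its controls lay closer together than those of Gli2. Pappa, a protease gene that cleaves insulin-like growth factor binding proteins, went from 2.31 and 1.49 to 0.403 and 0.755 CPM per kb, a log2 fold of -1.71. The others were Pdgfd, a growth factor gene (-1.70), Kcnmb2, a potassium channel subunit gene (-1.69), Arhgap42, a GTPase regulator gene (-1.67), Tenm3, a teneurin of synapses (-1.61), and Esrrg, an orphan nuclear receptor gene (-1.56). All 8 passed under receptor scaling, where they lay between -1.13 and -0.91, but without control 1 only 2 of the 8 passed.

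The 4 rises included 2 blood regulators. Runx1, a transcription factor gene needed to form blood stem cells (chr16:92601466-92826074, minus strand, mm10), had 1.34 and 1.27 CPM per kb in the controls and 3.31 and 1.82 in the knockouts. Both knockouts were above both controls, knockout 1 well above knockout 2 (log2 fold 0.97 ± 0.33 SE, edgeR adjusted p = 0.018). Etv6, an ETS family repressor gene of blood stem cells, had 2.13 and 1.82 CPM per kb in the controls and 4.74 and 2.45 in the knockouts (0.86 ± 0.36, edgeR adjusted p = 0.0469). Runx2, best known as the bone-forming relative of Runx1, went from 1.04 and 1.03 to 2.32 and 1.35 CPM per kb (log2 fold 0.83). Another gene or genes cover 17.9% of the Runx2 body, so its counts are uncertain. Without long genes covered over more than 10% of their body, 3 rises were left. Tnrc6b, which encodes a partner of Argonaute in microRNA silencing, went from 0.578 and 0.790 to 1.32 and 1.03 CPM per kb (log2 fold 0.78). None of the 4 passed without control 1, without control 2 or without knockout 1.

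**Figure D2:**
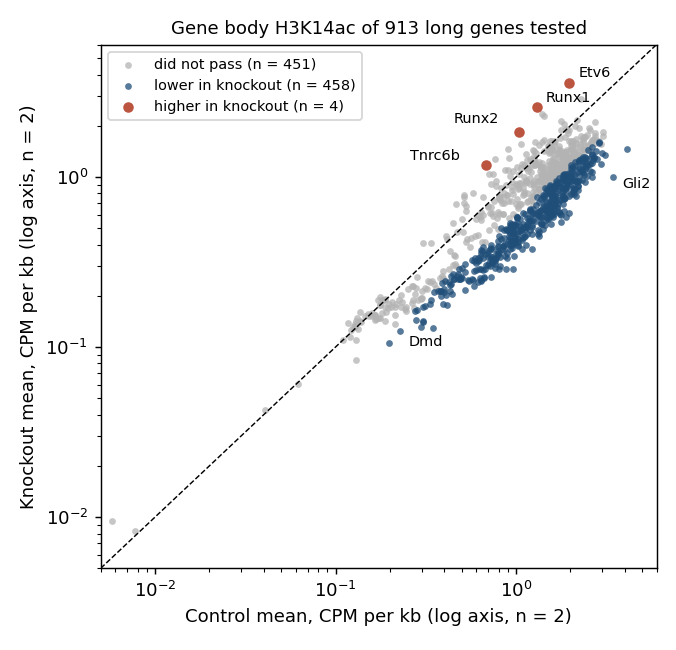
Mean gene body level in CPM per kb of the 913 long genes tested, control mean on the x axis and knockout mean on the y axis (n = 2 each, both axes logarithmic), with the line of equal level dashed. The 458 genes that fell lie below the line at nearly all levels, and the 4 that rose (Runx1, Etv6, Runx2, Tnrc6b) above it.

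The 5 longest genes were all lower in the knockouts on average, 3 of them past the threshold. Dmd (chrX:82948870-85205050, plus strand, mm10) had 0.271 and 0.183 CPM per kb in the controls and 0.102 and 0.145 in the knockouts, and fell by 0.88 on the log2 scale. Cntnap2, a neurexin relative of 2241.3 kb, fell (log2 fold -1.15), as did Macrod2, an ADP-ribose hydrolase gene (-1.30). Lrp1b, a lipoprotein receptor family gene, had 0.191 and 0.192 in the controls and 0.153 and 0.169 in the knockouts and did not pass (-0.25), nor did Csmd1, a complement regulator gene (-0.58). At the edge of the rule, Pcbp3 (200.1 kb) had a log2 fold of -0.78 and Plcxd3 (200.1 kb) -0.23, while just below it Atp9b (199.9 kb) had 0.13 and Morc1 (199.7 kb) -1.12.

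With all 4 libraries, falls were more frequent in longer genes, and were not confined to genes over 200 kb. The share of genes that fell was 20.3% at 30 to 100 kb, 32.5% at 100 to 200 kb, 44.6% at 200 to 300 kb, 52.9% at 300 to 500 kb, 56.6% at 500 to 1000 kb and 61.7% at 1000 kb or more. The medians of the log2 fold over the last 5 of these classes were -0.45, -0.68, -0.84, -0.91 and -0.90. Without control 1 hardly any falls were left in any of the classes or among all genes tested, so the shares depend on the libraries used. The medians over the same 5 classes were then -0.37, -0.57, -0.67, -0.71 and -0.67. With receptor scaling they were 0.20, -0.04, -0.18, -0.24 and -0.26, so the sign at 100 to 200 kb depends on the scaling. Genes of 3 to 10 kb had a median of 0.33 and 7.65% of them fell, while genes under 3 kb had a median of -0.23 and 9.72% fell. Within the long genes, length and log2 fold had a Spearman rho of -0.19 over 913 genes, which share the same 4 libraries. Controls and knockouts also differed in shape along the length classes. From 100 to 500 kb the control levels lay above the median of all genes and those of knockout 1 below it. Knockout 2 lay slightly above it at 100 to 200 kb (0.08) and 200 to 300 kb (0.09) and below it at 300 to 500 kb (-0.16). At 1000 kb or more the values were -0.14 and -0.65 in the controls and -1.92 and -1.39 in the knockouts.

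**Figure D3:**
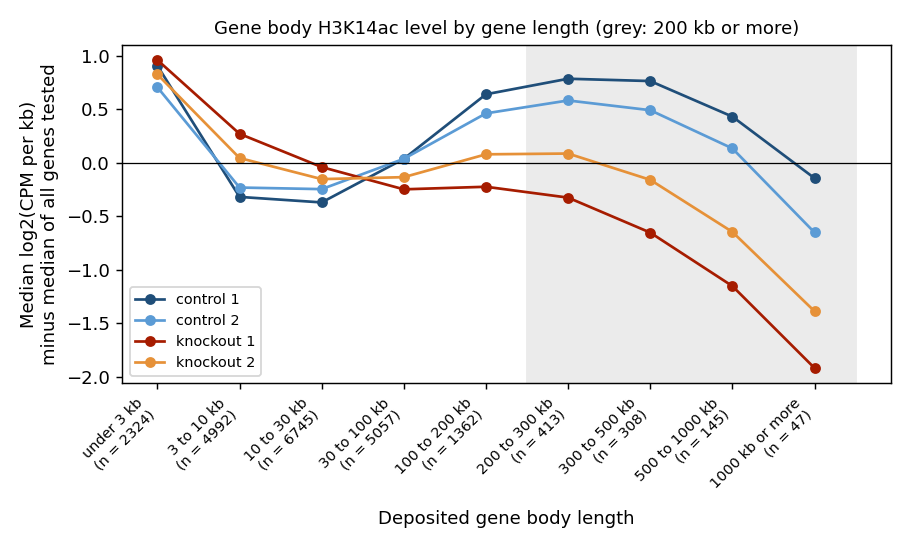
Median gene body level of genes in each length class minus the median of all genes tested, as log2 CPM per kb, 1 line per library, with the classes of 200 kb or more shaded. Beyond 30 to 100 kb both knockout lines lie below both control lines, and at 1000 kb or more they reach -1.92 and -1.39.

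The order of the 4 libraries was alike in most long genes. Knockout 1 was below knockout 2 in 833 of 913 gene bodies, control 1 above control 2 in 771, and the full order from knockout 1 through knockout 2 and control 2 to control 1 held in 706. The 2 libraries of a genotype thus differed from each other in the same direction across most of these genes.

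The 10 lists group long genes by role, with 335 long genes on at least 1 list and 20 on more than 1. Their counts stand beside 50.2% of all long genes tested, and 15.2% of all genes tested, that fell, and no list was tested against either. Among 19 axon guidance genes, 17 (89.5%) fell and none rose (median log2 fold -1.12). Robo1, a receptor for Slit guidance cues, had 1.02 and 0.593 CPM per kb in the controls and 0.219 and 0.357 in the knockouts (log2 fold -1.48). Ntng1, a netrin family gene, had a log2 fold of -1.45 and Epha3, an ephrin receptor gene, -1.36. Of 37 ion channel genes 27 (73.0%) fell (median -0.90), among them Ryr2, the calcium release channel of heart muscle (-1.41), the potassium channel gene Kcnh8 (-1.33) and the cation channel gene Trpc5 (-1.21). Of 60 synapse adhesion and scaffold genes 36 (60%) fell (median -0.90), among them Ptprd, a receptor phosphatase gene (-1.35), and Cntn3, a contactin gene (-1.27). Of 26 transmitter receptor genes 14 (53.8%) fell, near the share of all long genes (median -0.93): Npsr1, the neuropeptide S receptor (-1.50), Grik3, a kainate receptor subunit (-1.15), and Oprm1, the mu opioid receptor (-1.11), were the 3 with the smallest p. No gene of these lists rose. The counts of every list depend on the libraries used, since falls over all long genes changed strongly when a library was left out. No list was refitted without a library. The median log2 fold of all long genes was -0.63 without control 1, against -0.78 with all 4 libraries.

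Cadherin and fragile site genes fell about as often as all long genes (50.2%). Of 14 cadherin genes 7 (50%) fell (median -0.81), with Fat3, a giant cadherin, going from 2.12 and 1.41 to 0.444 and 0.754 CPM per kb (log2 fold -1.56) and Cdh4 having -1.32. Of 23 giant cytoskeletal and muscle genes 14 (60.9%) fell (median -0.82), among them Dnah5, a dynein heavy chain of cilia (-1.36), and Sgcd, a partner of dystrophin (-1.30). Of 33 common fragile site genes 18 (54.5%) fell (median -0.88), among them Ptprg, a receptor phosphatase gene (-1.52), and Dab1, an adaptor in Reelin signalling (-1.33). None of these 3 lists held a rise.

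Blood and immune genes held 2 of the 4 rises. Of 33 long genes on that list, 7 (21.2%) fell, against 50.2% of all long genes and 15.2% of all genes tested. Runx1 and Etv6 (6.06%) rose, against 23.1% of all genes tested, and the median log2 fold was -0.39. The falls were Abi3bp (-1.08), an extracellular matrix protein gene, Nfib (-1.05), a nuclear factor I gene, Ebf1 (-1.10), a B cell transcription factor gene, Prdm16 (-1.13), a regulator of blood stem cells, Themis (-0.94), a T cell selection gene, Inpp4b (-0.89), a phosphoinositide phosphatase gene, and Camk1d (-0.90), a calmodulin-dependent kinase gene. Prdm16 had 3.32 and 2.28 CPM per kb in the controls and 1.11 and 1.45 in the knockouts, and Ebf1 1.83 and 1.46 against 0.625 and 0.911. Of 40 chromatin and transcription regulators 17 (42.5%) fell and none rose (median -0.68), and of 70 vesicle, phosphodiesterase, kinase and other widely used genes 20 (28.6%) fell and none rose (median -0.52). The difference between lists was not tested.

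**Figure D4:**
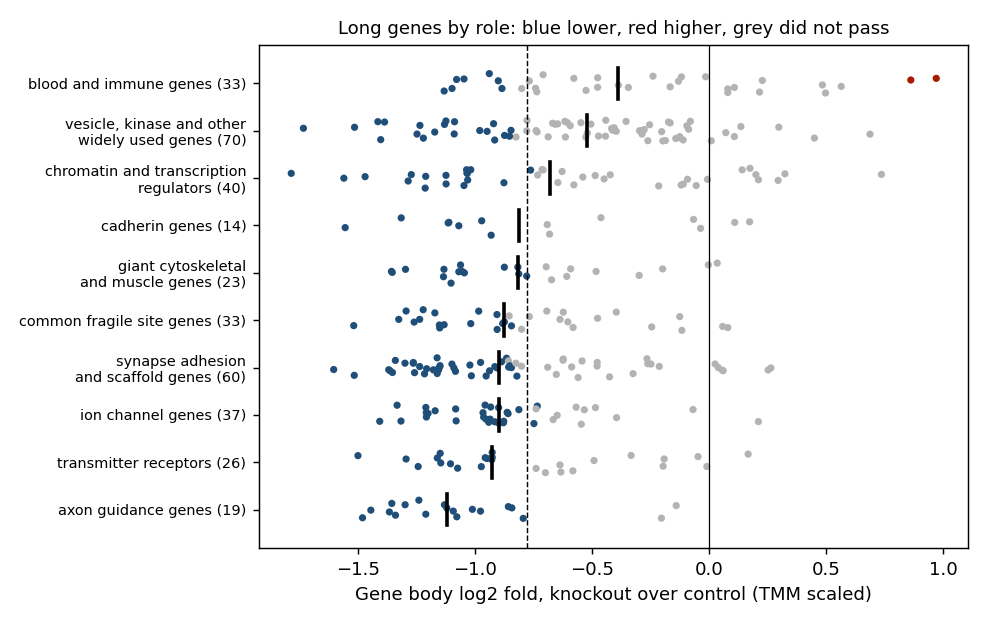
Gene body log2 fold (knockout over control) of each long gene on 10 role lists, with the number tested in parentheses, the list median as a black bar and the median of all long genes (-0.78) dashed. The axon guidance list has the lowest median (-1.12) and the blood and immune list the highest (-0.39), with both of its rises at the right.

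Upstream of the start, long genes moved in both directions. Of 845 tested, 188 fell and 111 rose, where 14.3% of all 23200 genes tested fell and 24% rose, and the median log2 fold was -0.58 against -0.09 for all genes. Fewer calls were made when a library was left out, among long genes and among all genes tested, and such a fit leaves a group with no replicate. Without control 1 or knockout 1, calls were lost or nearly lost over all genes. The median log2 fold of long genes was -0.47 without control 1, -0.69 without control 2, -0.38 without knockout 1 and -0.72 without knockout 2. That of all genes tested was -0.09, -0.04, 0.01 and -0.08 in that order. Scaled on the receptor genes, 4 long genes fell and 165 rose, where 0.164% of all genes tested fell and 31% rose. The median was then 0.32 against 0.83 for all genes, so the sign of the upstream median depends on the scaling. The distance from all genes was -0.48 with TMM and -0.51 with receptor scaling. Among the 181 long genes with a mean upstream count of at least 50 that distance was 0.01 (medians -0.22 and -0.23), with 55 rises and 35 falls. Of all genes at that count, 31.9% rose and 13.3% fell.

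The named upstream rises were all past the threshold by edgeR. Nr6a1, an orphan nuclear receptor gene of germ cells, had 0 and 1 upstream counts in the controls and 18 and 19 in the knockouts. The ratio of scaled levels was 49.1, with a 95% counting interval from 8.28 to 1989.5 (exact binomial), while its body hardly differed (0.887 and 0.976 against 0.967 and 1.07 CPM per kb). Sdccag8, a centrosome gene, had 3.47 and 4.47 CPM per kb upstream in the controls and 80.9 and 23.3 in the knockouts (log2 fold 3.70 ± 0.74 SE). Pitpnc1, a phosphatidylinositol transfer protein gene, had 0.868 and 2.65 against 35.0 and 11.1 (3.68 ± 0.57). In both genes knockout 1 was well above knockout 2, and both knockouts were above both controls. Adamts6, a metalloprotease gene, had a log2 fold of 2.98, and Slc10a7, a membrane transporter gene, 3.09. The start of Rbmxl1 lies in the upstream window of Slc10a7.

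Named upstream falls included Cngb3, a cone photoreceptor channel gene (6.60 and 7.46 CPM per kb in the controls, 0.682 and 1.55 in the knockouts, log2 fold -2.62 ± 0.59 SE, edgeR adjusted p = 0.000118), Brinp3 (-2.58), the synaptic scaffold gene Magi2 (-2.52) and Prkd1, a protein kinase D gene (-2.48). Brinp3 had 7.99 and 5.63 CPM per kb in the controls and 0 and 2.22 in the knockouts. Magi2 had 13.7 and 8.45 against 1.59 and 2.22. Controls and knockouts did not overlap in these genes. The start of 4921504A21Rik lies in the upstream window of Magi2.

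Upstream calls differed between the CpG classes of the start, a difference that was not tested. Of the 515 tested long genes with a CpG-rich start, 102 rose and 66 fell (median -0.19). Of the 279 with a CpG-poor start, 6 rose and 107 fell (median -1.02). Over the body both classes were lower, with 241 falls among 541 CpG-rich and 181 among 314 CpG-poor genes. Shorter genes with CpG-rich starts had an upstream median of 0.98, and 44.1% of them rose, against 19.8% of the CpG-rich long genes. Shorter genes with CpG-poor starts had an upstream median of -0.71, with 23.3% falls and 8.38% rises, against 38.4% and 2.15% of the CpG-poor long genes. Another gene's start lies in the upstream window of 56 long genes, of which 51 were tested: 25 of these rose and 3 fell, while among the other 794 tested, 86 rose and 185 fell. These 794 include 51 genes with no RefSeq span, of which 3 rose and 15 fell, whose windows could not be searched for a start.

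The ratio of body to upstream level removes any scaling between libraries. Its median over long genes was 1.73 and 1.54 in the controls and 0.950 and 1.16 in the knockouts, and 695, 690, 436 and 552 of 922 genes had a ratio above 1 in that order. In log2 the medians were 0.79 and 0.62 against -0.07 and 0.21, a difference of -0.64 (exact permutation p = 0.333). Genes with CpG-rich starts had medians of 2.29 and 1.89 against 0.947 and 1.30, and genes with CpG-poor starts 1.13 and 1.06 against 0.924 and 0.988.

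**Figure D5:**
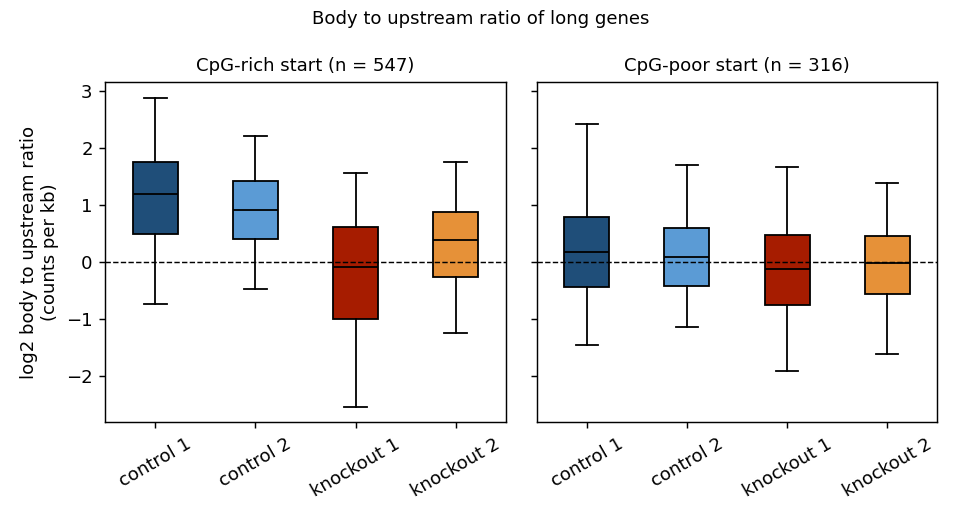
Log2 ratio of body to upstream counts per kb in each library, for long genes with a CpG-rich (n = 547) and a CpG-poor (n = 316) start, as boxes of the interquartile range with the median, and whiskers from the 5th to the 95th percentile. In the CpG-rich class both knockout medians lie below both control medians by a wider margin than in the CpG-poor class.

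In the model of both region classes, the ratio fell in 158 of 919 long genes tested and rose in 1, the predicted gene Gm6833 (edgeR, interaction of region and genotype), where 10.5% of all 24568 genes tested fell and 1.9% rose. The median log2 change was -0.53 against -0.25 for all genes. With TMM within each region class the medians were -0.18 and 0.11, and 144 long genes fell, as did 8.13% of all genes tested. This is not particular to genes over 200 kb, since the medians were -0.58 at 30 to 100 kb and -0.66 at 100 to 200 kb. The number of falls changed with the library left out, in long genes and in all genes tested. Without each library in turn (control 1, control 2, knockout 1, knockout 2) the median log2 change of long genes was -0.50, -0.63, -0.43 and -0.70. That of all genes tested was -0.22, -0.29, -0.21 and -0.31. Of the 158, 132 had a CpG-rich start (24.3% of the 544 tested) and 21 a CpG-poor start (6.65% of the 316 tested). Among shorter genes the ratio fell in 18.9% with a CpG-rich and 4.02% with a CpG-poor start, so this split is not particular to long genes. Passing without any 1 library were all 5 named genes, Nr6a1, Slc10a7, Sdccag8, Pitpnc1 and Nr3c2. Slc10a7 went from ratios of 5.24 and 3.87 in the controls to 0.246 and 0.428 in the knockouts (log2 change -3.83 ± 0.45 SE, edgeR adjusted p = 0.000887). Sdccag8 went from 3.96 and 2.32 to 0.121 and 0.398, and Pitpnc1 from 10.4 and 3.60 to 0.230 and 0.809. In these genes the upstream window rose and the body did not pass the test.

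Nr3c2, the mineralocorticoid receptor gene, moved in opposite directions. Its body fell from 2.28 and 1.40 to 0.450 and 0.803 CPM per kb, its upstream window rose from 2.26 and 1.66 to 6.59 and 5.54, and its ratio fell (log2 change -3.56 ± 0.54 SE, edgeR adjusted p = 0.00163). Cfap54, Ctnna3, Ppm1l and Zfp407, named after their values were seen, also fell over the body and rose upstream. Of the 458 genes whose body fell, 163 also fell upstream, 8 rose there, 258 did not pass there and 29 were not tested.

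Downstream of the gene end, 61 of 804 tested genes fell and 15 rose, where 2.29% of all 21566 genes tested fell and 10.8% rose. The median log2 fold was -0.55 against -0.03 for all genes. The number of calls changed with the library left out, in long genes and in all genes tested. The median log2 fold of long genes was -0.40 without control 1, -0.69 without control 2, -0.40 without knockout 1 and -0.68 without knockout 2. Esrrg fell most, from 14.1 and 9.89 to 1.86 and 2.64 CPM per kb (log2 fold -2.37 ± 0.43 SE, edgeR adjusted p = 0.00161), followed by Fat3 (-2.11) and Astn2, a neuronal migration gene (-1.98). Without control 1 Fat3 and Astn2 did not pass. The 3 largest rises lay where the window holds the start of another gene. Spidr, a DNA repair gene, went from 3.29 and 2.87 to 85.4 and 29.8 CPM per kb over a window with the start of Cebpd, a transcription factor gene of myeloid cells. Thada went from 6.42 and 5.90 to 161 and 50.6 over the start of Zfp36l2, an RNA-binding protein gene, and Acoxl from 2.97 and 4.47 to 101 and 25.1 over the start of Bcl2l11, a cell death gene. None of these 3 rises passed without control 1 or without control 2. Of the 19 tested windows with another start 9 rose and none fell, and of the other 785, 6 rose and 61 fell. The 785 include 49 genes with no RefSeq span, of which 0 rose and 5 fell.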

How the data were processed

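Libraries were made with Tn5 in CUT&Tag from sorted cells, per the labels' protocols. The deposited values are whole-number read counts per gene over the gene body, the 5 kb upstream and the 5 kb downstream, counted by the authors with featureCounts on mm10, per the submitters' processing notes; the aligner, read filters and strand or overlap settings are not given in these sources. The series tables and library files differed in 0 values. Reads of overlapping genes may be split or dropped, so such genes are uncertain.

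Counts of each region class were fitted over all its genes with edgeR 4.0.16 in R 4.3.3 (quasi-likelihood F-test, filterByExpr with minimum count 10 and minimum total 15, TMM, Benjamini-Hochberg, threshold 0.05). The ratio change is the interaction of region and genotype with library as a block and 1 library size. Ratios have 0.5 added to each count, log2 levels a prior count of 2. The standard error is the log2 fold divided by the square root of F. The script was tested on simulated data. DESeq2 1.42.0 and limma 3.58.1 served as alternatives, and tables and plots were made in Python 3.11.15 (scipy 1.17.1, pandas 2.3.3, matplotlib 3.10.9, numpy 2.4.6). Alternatives were other scalings, filters and tests, a GC correction, blocks, a minimum of 300000 bp and each library left out. Intervals cover counting error only.

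The genes and lists were chosen with earlier results of these data known. Named genes were, among those with a regular symbol, the 8 that fell and rose most over bodies past the threshold with both knockouts on 1 side of both controls, 5 and 5 upstream and for the ratio, 3 and 3 downstream, the 5 longest, the 3 highest and 3 lowest control levels, the 2 just above and below 200000 bp, up to 8 blood genes and up to 3 of each other list by smallest p, and Dmd. Some genes that this rule or the marker lists pick are not reported here.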

Additional observations from a re-analysis of the deposited data

How the results depend on the processing

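The median body log2 fold of long genes lay below that of all genes in every refit and every other scaling, filter or test. The differences of medians lay between -0.59 and -0.98, but counts of calls moved with the scaling and the libraries. Falls over bodies, 458, were 279 with library totals, 288 with totals pooled over the 3 region classes and 108 with receptor scaling. They were 97 with the replicate block and 180 with the block and a GC correction. Of all genes tested, 4.63%, 6.36%, 0.869%, 4.15% and 3.9% fell in that order, against 15.2% in the main fit. Rises over bodies, 4, were 24, 13, 51, 0 and 12 in the same order, 23 with the GC correction alone and 9 at a mean count of at least 50. Of all genes tested, 29.8%, 26.5%, 21.1%, 13.1%, 15.3%, 23.9% and 21.3% rose in these settings, against 23.1% in the main fit. Upstream, falls (188) were 36 with pooled totals, 4 with receptor scaling, 67 with the DESeq2 Wald test, 35 at a mean count of 50 and 80 with the replicate block. Of all genes tested, 1.97%, 0.164%, 6.27%, 13.3% and 3.79% fell in that order, against 14.3% in the main fit. Upstream rises (111) were 55 at a mean count of 50 and 62 with the block, where 31.9% and 15% of all genes tested rose. Downstream, falls (61) were 100 with library totals, 36 with DESeq2 size factors, 8 with receptor scaling and 7 with the Wald test. They were 26 with no filter, 15 at a mean count of 50 and 34 with the block. Of all genes tested, 4.37%, 1.5%, 0.278%, 0.25%, 0.799%, 1.75% and 1.44% fell in that order, against 2.29% in the main fit. Downstream rises (15) were 8 at a mean count of 50, where 13.6% of all genes tested rose. Rises of the ratio (1) were 13 with TMM within region classes, 6 with limma-trend and 3 with the block, where 4.57%, 1.56% and 2.6% of all genes tested rose. The cause was not tested. Leaving out 1 library gave 2 to 556 falls and 0 to 12 rises over bodies, 0 to 23 and 0 to 38 upstream, 3 to 146 and 3 to 29 downstream, and 60 to 277 and 0 to 10 for the ratio. Leaving out control 1 or knockout 1 gave no upstream call by edgeR.

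The replicate numbers are not stated to mark a shared animal or day, and same-numbered libraries deviated oppositely (correlations of -0.36, -0.28 and -0.22 over bodies, upstream and downstream). A crossed pairing, added after seeing the data, gave 698 falls and 18 rises over bodies, 266 and 129 upstream, and 183 and 23 downstream. Of all genes tested, 25.9% fell and 30.4% rose with it over bodies, 23.4% and 27.8% upstream, and 8.68% and 15.4% downstream. The pairing follows the deviations of these same libraries, so its larger counts are no support for the calls. Depth limits the flanks most: 31 long genes had fewer than 10 upstream counts in every library.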

Other observations

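The 41 long genes on the X chromosome had lower body levels than those on autosomes, with medians of 0.580 and 0.514 CPM per kb in the controls against 1.47 and 1.24, and 0.256 and 0.382 against 0.658 and 0.925 in the knockouts. The mice were male, and levels were not corrected for the lower copy number of the X chromosome. The X genes were also poorer in G and C (median 38.4% against 41.5%). The part of either in the lower levels was not tested. Falls were about as frequent on both, 21 of 41 on the X chromosome and 434 of 867 on autosomes, with medians of -0.76 and -0.78. By chromosome, the extremes, chosen after their values were seen, were chromosomes 5 and 19: on chromosome 5, 40 of 58 long genes fell over the body, and on chromosome 19, 6 of 21. Long non-coding RNA genes had 11 falls among 22 and a median of -0.77.

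RefSeq spans put 10 long genes under another gene over more than 90% of their body, among them members of the alpha protocadherin cluster, Filip1l, Schip1 and Iqschfp, and 8 of these had too few counts to be tested. Pcdha1 had 0.00499 and 0.00654 CPM per kb in the controls, and Iqschfp 0.00834 and 0.00714. How the authors assigned reads of overlapping genes is not given in the sources used here. Overlap was looked for only among the 21944 of 27179 genes whose RefSeq span matched the deposited length. Among the 637 long genes with no such gene found inside or across them, 322 fell and 2 rose over the body. Genes without a matched span were not searched, so these 637 are not known to be free of every annotated gene.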
